A study of Mus musculus with 24 samples.

Results

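Cholesterol synthesis genes under control of the transcription factor SREBP2 were followed in blood-forming progenitors of mice with and without the leukaemia fusion MLL::ENL (ME). The set had 8 members, chosen by gene symbol from the deposited count table: Srebf2, Insig1, Hmgcs1, Idi1, Fdft1, Sqle, Lss and Cyp51. They were 8 of 55487 genes in the table, and all 8 were among the 23059 genes with enough counts to be tested. The set was described as genes of synthesis and uptake, but none of the 8 codes for an uptake receptor, so genes of uptake and transport were followed in a separate list.

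The data were bulk RNA-seq read counts from 24 libraries of mouse cells labelled LSK (lineage-negative, Sca-1-positive, KIT-positive), in 6 groups of 4. Every ME group carried a human MLL::ENL transgene in a Tet-off system, and the sources used here do not name the driver of the system. Newborn liver (postnatal day 0, P0) gave a wild-type group (P0 WT) and a group in which ME had been on since embryonic day E10.5 (P0 ME). Marrow at postnatal day 28 (P28) gave wild-type libraries (P28 WT), libraries with ME on since E10.5 (E10.5-induced ME) and libraries with ME on since birth (P0-induced ME). A further marrow group, also induced at E10.5, is named RLT Vav Txp, a name the labels leave unexplained. The level of the transgene was not analysed here. Because liver was taken at P0 and marrow at P28, the effects of age and of tissue cannot be told apart. The design text names Lineage-KIT+ progenitors where the labels say LSK, and it speaks of biological replicates without saying whether each came from its own animal, so p-values measure the spread between these libraries. Each edgeR test used a spread pooled over all 24 libraries, although the groups differed in spread.

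Cells make cholesterol from acetyl-CoA through mevalonate, isoprenoid intermediates, squalene and lanosterol. When membrane sterol is low, the escort protein SCAP carries SREBP2 from the endoplasmic reticulum to the Golgi, where proteases release its active part, which enters the nucleus and activates genes of synthesis and uptake. INSIG1 retains the SCAP and SREBP complex when sterol is plentiful, and Insig1 is itself an SREBP target. Srebf2 codes for SREBP2. Hmgcs1 makes hydroxymethylglutaryl-CoA upstream of mevalonate, Idi1 interconverts the isoprenoid building blocks, Fdft1 makes squalene, Sqle oxidises it, Lss closes the rings to lanosterol, and Cyp51 removes a methyl group from lanosterol.

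The promoters of these genes are known for sterol regulatory elements beside CCAAT boxes, so the deposited values are set here beside sequence upstream of each start. Entries in the RefSeq promoter table (GRCm38.p6, 250 bases before to 50 after each start) were found for 6 of the 8, and Fdft1 and Sqle had none. The 5 stretches below hold a match, and each ends before the annotated transcript start. Capitals mark matches to TCACCNCA, CACGTG or CCAAT on either strand (ATTGG is CCAAT on the other strand).
Hmgcs1, chr13:119690201-119690350, plus strand: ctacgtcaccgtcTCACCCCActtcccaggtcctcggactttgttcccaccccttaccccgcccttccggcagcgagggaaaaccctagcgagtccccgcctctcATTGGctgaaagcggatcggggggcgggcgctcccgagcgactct
Srebf2, chr15:82147031-82147180, plus strand: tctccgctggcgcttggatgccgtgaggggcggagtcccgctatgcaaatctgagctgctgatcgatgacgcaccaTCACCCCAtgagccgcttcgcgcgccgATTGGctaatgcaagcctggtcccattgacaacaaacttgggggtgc
Cyp51, chr5:4104747-4104896, minus strand: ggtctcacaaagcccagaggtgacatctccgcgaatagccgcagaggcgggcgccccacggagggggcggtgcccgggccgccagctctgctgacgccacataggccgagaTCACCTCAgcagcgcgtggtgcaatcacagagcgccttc
Insig1, chr5:28071213-28071362, plus strand: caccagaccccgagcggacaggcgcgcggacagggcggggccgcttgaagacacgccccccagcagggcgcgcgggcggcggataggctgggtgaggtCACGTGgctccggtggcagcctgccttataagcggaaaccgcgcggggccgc
Lss, chr10:76531438-76531587, plus strand: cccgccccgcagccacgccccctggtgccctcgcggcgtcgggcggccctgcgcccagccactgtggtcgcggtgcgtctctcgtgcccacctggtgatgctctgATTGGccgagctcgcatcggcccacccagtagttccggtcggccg

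In the 250 bases before the RefSeq start, read on both strands, TCACCCCAC was present in Hmgcs1 alone among the 6 and in 0.496% of 32851 promoters. TCACNCCAC, which overlaps it, was present in Hmgcs1 alone and in 1.05% of promoters. The shorter TCACCNCA, added after the sequences were seen, was present in Hmgcs1, Srebf2 and Cyp51 and in 3.61% of promoters. CCAAT and the GC box GGGCGG were each present in 6 of 6, against 33.8% and 32.7% of promoters. CACGTG was present in Insig1 and in 6.02% of promoters. These matches describe letters in a window and were not tied to any count.

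Library totals ran from 31233688 to 89774511 counts, and the member with the lowest counts in any library, Lss, had at least 209. Macrophage markers were higher in the P0 and RLT Vav Txp libraries than in the other groups. Summed over 10 macrophage markers, none of them at 0 in any group, CPM (counts normalised to library size) were 764 to 3214 in RLT Vav Txp, 125 to 1580 in P0 ME and 135 to 1382 in P0 WT, against 85.7 to 123 in P28 WT, 56.6 to 88.3 in E10.5-induced ME and 55.5 to 76.6 in P0-induced ME. The summed 7 genes of the LSK population, among them Kit, Ly6a, Ptprc, Cd34, Flt3 and Slamf1, were 1966 to 2902 CPM in RLT Vav Txp and 3938 to 4464 CPM in P28 WT. The P0 groups reached the low range too, at 2141 to 4597 CPM in P0 WT and 2052 to 4556 CPM in P0 ME. Of these genes Flt3 and Cd34 fell and Slamf1 rose in RLT Vav Txp against P28 WT. Library 1 of P0 WT and library 1 of P0 ME stood apart from the other P0 libraries in several sums. They held 654 and 273 CPM of 8 erythroid markers against 5225 to 17500, and 135 and 125 CPM of macrophage markers against 1133 to 1580. Neutrophil markers were at 895 and 822 CPM against 10880 to 35580, and hepatocyte markers at 207 and 227 CPM against 337 to 710. Summed LSK genes were higher, at 4597 and 4556 CPM against 2052 to 3279. Mast cell markers did not follow, at 8672 and 43.0 CPM against 201 to 1745. Library 4 of P0 WT agreed least with its own group, with a Spearman correlation of 0.839 over 10249 genes. Summed over 8 hepatocyte markers, the range was 207 to 710 CPM in the P0 groups and 174 to 256 CPM in the P28 groups other than RLT Vav Txp (279 to 718 CPM). Trf gave most of that sum, averaging 324 CPM in P0 WT, 217 CPM in P28 WT and 501 CPM in RLT Vav Txp. Alb averaged 33.2, 0.449 and 1.32 CPM in the same groups. All 8 markers were lower in P28 WT than in P0 WT, with a median log2 fold change of -5.83. In RLT Vav Txp against P28 WT, 5 of the 8 were above 0 and 3 below. In bulk RNA, fewer cells of a type and less RNA per cell cannot be told apart.

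Length-adjusted levels placed the regulator far above the enzymes. Averaged over the 24 libraries and given as RPKM (CPM divided by exon length), Srebf2 stood at 36.9, Cyp51 at 12.4, Insig1 and Sqle at 10.7 each, Idi1 at 7.34, Hmgcs1 at 6.52, Fdft1 at 5.69 and Lss at 1.13. The length is the union of all annotated exons, longest for Lss at 10787 bases, which lowers its RPKM. In CPM without length, Srebf2 was also highest at 265 and Lss lowest at 12.2. Between the group with the highest mean CPM and the group with the lowest, the ratio was 1.35 for Sqle, 1.42 for Fdft1, 1.58 for Cyp51, 1.64 for Hmgcs1, 1.66 for Srebf2, 1.82 for Insig1, 2.10 for Lss and 2.95 for Idi1. When the 6 groups were placed in order of their means, each of the 5 neighbouring pairs overlapped in every member. Of 72 tests of a member over 9 comparisons, 3 passed an adjusted p under 0.05 by the edgeR quasi-likelihood test: Lss rose in E10.5-induced ME against P28 WT, Insig1 rose in RLT Vav Txp against E10.5-induced ME, and Idi1 fell from P0 WT to P28 WT.

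**Figure D1:**
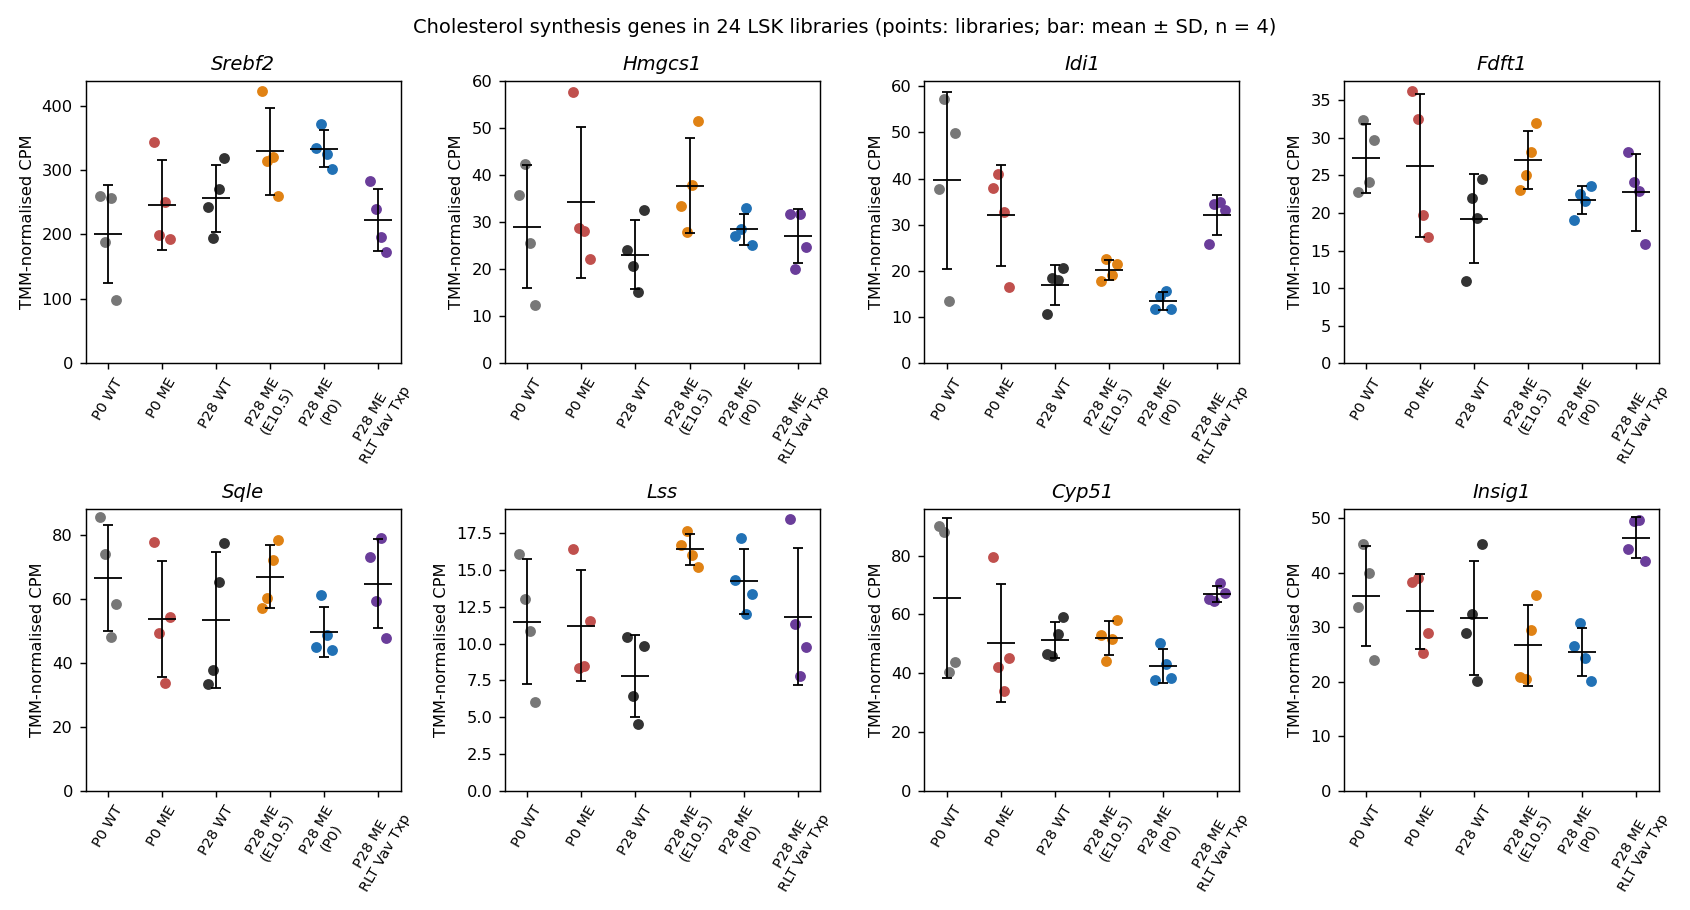
Normalised CPM of the 8 cholesterol synthesis genes (vertical axes, each starting at 0) in the 6 groups (horizontal axes). Points are libraries and bars are the mean ± SD of 4; Insig1 in the RLT Vav Txp group sits at 42.2 to 49.7, above all libraries of E10.5-induced ME, while Idi1 in P0 WT spreads from 13.5 to 57.2.

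Srebf2 (chromosome 15, 82147181 to 82205379, plus strand, GENCODE M21 on GRCm38) had its highest group means in P0-induced and E10.5-induced ME at P28, while the RLT Vav Txp mean lay below that of P28 WT. Its CPM was 260, 188, 256 and 98.7 in P0 WT and 344, 199, 250 and 193 in P0 ME. In P28 WT it was 242, 195, 271 and 318, in E10.5-induced ME 422, 314, 321 and 259, and in P0-induced ME 335, 372, 325 and 302. The RLT Vav Txp libraries held 283, 239, 196 and 173. Both induced groups reached above P28 WT while overlapping it, and library 4 of P0 WT was the lowest of the 24. The log2 fold change against P28 WT was 0.36 (SE 0.24, edgeR adjusted p = 0.354) in E10.5-induced ME, 0.38 (SE 0.24, edgeR adjusted p = 0.392) in P0-induced ME and -0.20 (SE 0.24, edgeR adjusted p = 0.797) in RLT Vav Txp.

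Insig1 (chromosome 5, 28071363 to 28078662, plus strand), which holds SREBP in the endoplasmic reticulum, was higher in the RLT Vav Txp group than in E10.5-induced ME. Its CPM there was 44.3, 49.6, 49.7 and 42.2, against 20.8, 20.6, 29.6 and 35.9 in E10.5-induced ME. No library of the RLT Vav Txp group overlapped the E10.5-induced libraries, and the log2 fold change was 0.80 (SE 0.24, 95% interval 0.31 to 1.29, edgeR adjusted p = 0.0225). In that comparison 17.9% of all genes were called, 1 of 8 members among them, and 3 of 8 members (Insig1, Idi1 and Cyp51) were higher without overlap, against 11.6% of all genes. The other 5 members were below 0, of which Sqle turned positive with RLE scaling, DESeq2, limma, a stricter filter, a fit of only the groups compared, and GC and length offsets, and the median of the 8 was -0.15 against 0.12 over all genes. Srebf2 was lowest among them at -0.56 (SE 0.24, edgeR adjusted p = 0.105), and passed with limma (-0.61, adjusted p = 0.0064) and in a fit of only the groups compared (-0.50, edgeR adjusted p = 0.045). Macrophage markers rose as well, 10 of 10 called higher. Summed markers of other lineages were also higher in RLT Vav Txp without overlap. Erythroid markers were at 1127 to 2373 against 387 to 760 CPM, neutrophil markers at 2068 to 6786 against 1014 to 1809 CPM. Mast cell markers were at 74.5 to 189 against 15.8 to 32.3 CPM. The part of such cells in the Insig1 difference was not tested. The call was lost without E10.5-induced ME library 1 (0.66, edgeR adjusted p = 0.104) or 2 (0.69, edgeR adjusted p = 0.0884), and without RLT Vav Txp library 2 (0.76, edgeR adjusted p = 0.059) or 3 (0.76, edgeR adjusted p = 0.0631).

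Against P28 WT, where Insig1 was 28.9, 32.4, 20.1 and 45.2 CPM, the RLT Vav Txp value was a log2 change of 0.55 (SE 0.24, edgeR adjusted p = 0.247), and library 4 of P28 WT lay within the RLT Vav Txp range. P0-induced ME held 26.5, 30.8, 24.3 and 20.2 CPM. In the P0 liver Insig1 was 33.7, 45.3, 39.9 and 24.1 CPM in WT and 38.4, 39.0, 25.3 and 29.0 CPM in ME. The 2 P0 groups overlapped each other, and library 2 of P0 WT lay within the RLT Vav Txp range while all P0 ME libraries lay below it.

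Lss, lanosterol synthase (chromosome 10, 76531588 to 76557138, plus strand), was the member with the largest ME difference at P28. Its CPM was 10.4, 6.44, 4.52 and 9.85 in P28 WT and 16.7, 17.7, 16.1 and 15.2 in E10.5-induced ME. All 4 induced libraries lay above all 4 wild-type libraries, and the log2 fold change was 1.07 (SE 0.32, 95% interval 0.41 to 1.74, edgeR adjusted p = 0.0299), a 2.10-fold difference. Here 12.3% of all genes were called and 1 of 8 members was, while 16.6% of all genes and 1 of 8 members were higher without overlap. The sum of 10 proliferation markers was 2681 to 3613 CPM in E10.5-induced ME and 1628 to 2116 CPM in P28 WT, with 5 of 10 called higher, and its part in the Lss difference was not tested.

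The Lss call did not hold under several settings. It was lost with offsets for GC content and transcript length (0.70, edgeR adjusted p = 0.138), with plain library totals (0.94, edgeR adjusted p = 0.0788) and with no filter on low counts (1.04, edgeR adjusted p = 0.0636). It was also lost without P28 WT library 1 (1.19, edgeR adjusted p = 0.0504), 2 (0.94, edgeR adjusted p = 0.128) or 3 (0.89, edgeR adjusted p = 0.102), and without E10.5-induced ME library 1 (1.09, edgeR adjusted p = 0.0627), 2 (1.04, edgeR adjusted p = 0.0761) or 3 (1.09, edgeR adjusted p = 0.0636).

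P0-induced ME had Lss at 14.3, 17.2, 12.1 and 13.4 CPM, also above all 4 P28 WT libraries, with a log2 change of 0.87 (SE 0.32, 95% interval 0.20 to 1.53, edgeR adjusted p = 0.129). Proliferation markers in those libraries summed to 1808 to 2430 CPM, overlapping P28 WT, but the list was split, with 5 of 10 above 0 and 5 below. Mcm2 averaged 340 CPM against 209 CPM in P28 WT, and Tyms 95.8 CPM against 150 CPM. Their part in the Lss value was not tested. In the RLT Vav Txp group Lss was 18.5, 11.3, 7.78 and 9.76 CPM and overlapped P28 WT. At P0 it was 16.1, 13.0, 10.9 and 6.01 CPM in WT and 16.5, 8.38, 8.51 and 11.6 CPM in ME, a log2 change of -0.03 (SE 0.32, edgeR adjusted p = 0.978). The test of whether the E10.5-induced difference was larger at P28 than at P0 gave 1.11 (SE 0.45, edgeR adjusted p = 0.219), so a difference between the ages was not called.

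Idi1, isopentenyl-diphosphate isomerase (chromosome 13, 8885501 to 8892451, plus strand), was the member called between the ages in wild-type cells. Its CPM was 37.8, 57.2, 13.5 and 49.9 in P0 WT and 10.7, 18.5, 18.1 and 20.6 in P28 WT. P0 WT libraries 1, 2 and 4 lay above all P28 WT libraries and library 3 lay among them. The log2 fold change from P0 WT to P28 WT was -1.22 (SE 0.31, 95% interval -1.87 to -0.58, edgeR adjusted p = 0.0161), in a comparison where 7.68% of all genes were called and 1 of 8 members was. Erythroid markers summed to 654 to 17500 CPM in P0 WT and 468 to 632 CPM in P28 WT, with 7 of 8 called lower at P28, and neutrophil markers to 895 to 17260 CPM and 705 to 934 CPM, with 6 of 8 called lower. Mast cell markers, at 775 to 8672 CPM and 7.90 to 31.6 CPM, had 4 of 6 called lower, macrophage markers 7 of 10 and hepatocyte markers 5 of 8. Summed LSK genes were at 2141 to 4597 CPM in P0 WT and 3938 to 4464 CPM in P28 WT. The part of these differences in cell content in the Idi1 difference was not tested.

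The Idi1 call was lost when only these wild-type groups were fitted (-1.20, edgeR adjusted p = 0.166), without P0 WT library 2 (-0.97, edgeR adjusted p = 0.0764) and without P28 WT library 1 (-1.04, edgeR adjusted p = 0.0706). Without P0 WT library 4, which agreed least with its group, the value was -1.09 (edgeR adjusted p = 0.0363). In cells with ME the same age difference was -0.66 (SE 0.31, edgeR adjusted p = 0.140), with P0 ME at 37.9, 40.9, 32.8 and 16.4 CPM and E10.5-induced ME at P28 at 17.8, 22.7, 19.0 and 21.4 CPM. P0-induced ME had 11.8, 14.5, 15.7 and 11.7 CPM, below every E10.5-induced library, with a log2 change of -0.59 between them (SE 0.31, edgeR adjusted p = 1). The RLT Vav Txp libraries held 25.8, 34.4, 34.97 and 33.2 CPM, all above P28 WT and E10.5-induced ME, with log2 changes of 0.92 (SE 0.31, edgeR adjusted p = 0.107) and 0.67 (SE 0.31, edgeR adjusted p = 0.142). Both changes passed with limma and in a fit of only the groups compared.

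**Figure D2:**
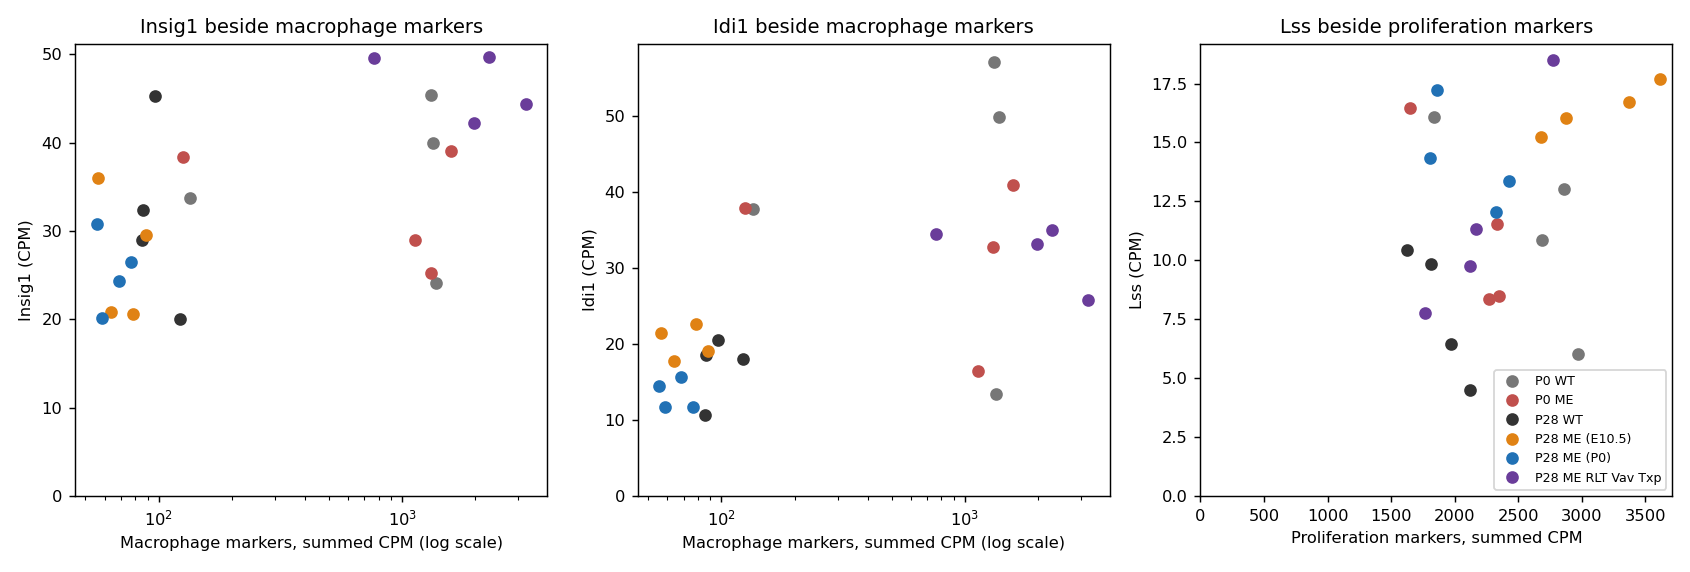
Normalised CPM of Insig1 and Idi1 (vertical axes) against the summed CPM of 10 macrophage markers (log axis), and of Lss against the summed CPM of 10 proliferation markers, with 1 point per library coloured by group. The RLT Vav Txp libraries lie at 764 to 3214 macrophage CPM with Insig1 at 42.2 to 49.7. P0 WT lies at 135 to 1382 macrophage CPM with Insig1 at 24.1 to 45.3, and P0 ME at 125 to 1580 with 25.3 to 39.0. The P0 libraries also differ in tissue and age, and RLT Vav Txp also had higher erythroid, neutrophil and mast cell markers than the other P28 groups. The part of macrophages or of these other cells was not tested.

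Cyp51, lanosterol demethylase (chromosome 5, 4081145 to 4104746, minus strand), had its highest P28 mean in RLT Vav Txp (66.9 ± 2.78 CPM) and its lowest in P0-induced ME (42.4 ± 5.74 CPM, SD, n = 4). Its CPM was 46.7, 45.8, 53.5 and 59.0 in P28 WT and 65.3, 64.4, 70.6 and 67.4 in RLT Vav Txp. The groups did not overlap, but the log2 change of 0.39 (SE 0.24, 95% interval -0.11 to 0.88, edgeR adjusted p = 0.505) was not called. Against P28 WT, 4.12% of all genes and 0 of 8 members were called in RLT Vav Txp by edgeR, with 2 of 8 members and 15.3% of genes at an unadjusted p under 0.05; DESeq2 called 0 and limma called Idi1. Members without overlap were 2 of 8 (Idi1 and Cyp51, both higher), against 7.02% of all genes. E10.5-induced ME held Cyp51 at 53.1, 44.3, 51.8 and 58.2 CPM, and P0-induced ME at 37.7, 50.2, 43.3 and 38.5 CPM. At P0 the libraries divided within each group, at 90.2, 88.0, 40.3 and 43.8 CPM in WT and at 79.5, 42.2, 33.9 and 45.2 CPM in ME. Cyp51 overlaps Akap9 on the opposite strand, and without a stated strand setting reads of the pair cannot be told apart where they overlap.

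Hmgcs1, hydroxymethylglutaryl-CoA synthase (chromosome 13, 119690379 to 119708260, plus strand), was highest in E10.5-induced ME at P28 by group mean. Its CPM was 24.0, 20.6, 15.2 and 32.6 in P28 WT and 33.5, 27.98, 37.9 and 51.7 in E10.5-induced ME. Library 4 of P28 WT lay within the induced range, and the log2 change of 0.71 (SE 0.32, 95% interval 0.06 to 1.36, edgeR adjusted p = 0.145) was not called. P0-induced ME held 27.1, 28.6, 33.1 and 25.2 CPM and RLT Vav Txp 31.8, 19.9, 31.7 and 24.6 CPM. At P0, Hmgcs1 was 35.8, 42.4, 25.6 and 12.5 CPM in WT and 57.8, 28.8, 28.2 and 22.1 CPM in ME. Those P0 groups overlapped over most of their range.

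Sqle, squalene epoxidase (chromosome 15, 59315077 to 59331192, plus strand), had the narrowest range of group means. Its CPM was 33.5, 37.8, 65.3 and 77.4 in P28 WT, 57.2, 60.4, 72.2 and 78.5 in E10.5-induced ME and 45.1, 61.2, 48.7 and 44.0 in P0-induced ME. P28 WT alone spanned nearly all of those values. The RLT Vav Txp libraries had 73.1, 59.5, 79.0 and 47.8 CPM, P0 WT 85.6, 74.2, 48.1 and 58.4 CPM and P0 ME 77.8, 49.4, 33.9 and 54.5 CPM. No Sqle comparison was called, and the difference of E10.5-induced ME from P28 WT was 0.33 (SE 0.25, 95% interval -0.20 to 0.85) on the log2 scale.

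Fdft1, squalene synthase (chromosome 14, 63145150 to 63179578, minus strand), was lowest in P28 WT by group mean. Its CPM was 10.9, 22.0, 19.4 and 24.6 in P28 WT and 23.1, 25.0, 28.1 and 32.0 in E10.5-induced ME. These overlapped through library 4 of P28 WT, and the log2 fold change was 0.49 (SE 0.25, 95% interval -0.03 to 1.01, edgeR adjusted p = 0.212). P0-induced ME had 19.1, 22.6, 21.6 and 23.6 CPM, RLT Vav Txp 28.1, 24.1, 23.0 and 15.9 CPM, P0 WT 22.9, 32.4, 24.1 and 29.7 CPM and P0 ME 36.3, 32.5, 19.7 and 16.8 CPM. Fdft1 overlaps Ctsb, a cathepsin gene with a mean of 828 CPM, on the opposite strand, so its counts are uncertain if the counting did not use strand.

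Counted as a set, 7 of 8 members had a log2 fold change above 0 in E10.5-induced ME against P28 WT, where Cyp51 at 0.02 turned negative with RLE scaling, plain library totals, DESeq2, limma, either other filter on low counts, a fit of only the groups compared, or GC and length offsets, as did Srebf2 with the offsets. The median was 0.34, against -0.10 over all genes tested, and 1 of the 8, Lss, passed the test. In P0-induced ME 4 of 8 were above 0, of which Srebf2 and Fdft1 turned negative with the GC and length offsets, and the median was 0.03 against -0.09 over all genes. By edgeR 0 of 8 members and 1.57% of genes were called there, with 1 member, Lss, and 20.2% of genes at an unadjusted p under 0.05; DESeq2 called 0 and limma called Lss. In RLT Vav Txp 7 of 8 were above 0 with a median of 0.33, against 0.0072 over all genes, and no member changed sign under the scalings tried. These 3 comparisons share the P28 WT libraries.

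At P0, 2 of 8 members were above 0 in ME against WT, but Fdft1 and Lss turned positive with plain library totals and Hmgcs1 turned negative with limma. The median was -0.09, against -0.01 over all genes. By edgeR 0 of 8 members were called, against 0.642% of all genes, 0 members and 14.1% of genes had an unadjusted p under 0.05, and DESeq2 and limma called 0. The largest difference was that of Cyp51, -0.39 (SE 0.24, 95% interval -0.88 to 0.11). The tests of the ME difference at P28 minus that at P0 called 0 of 8 members by edgeR, against 0.72% of all genes, with 1 member and 16.5% of genes at an unadjusted p under 0.05 and 0 members called by DESeq2 or limma. That difference was above 0 in 7 of 8 members, though Srebf2 changed sign with RLE scaling, plain library totals, DESeq2 and the offsets and Insig1 with limma, with a median of 0.51 against -0.04 over all genes.

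Between the induction times, 0 of 8 members and 0.0477% of all genes were called at P28 by edgeR, 0 members and 4.33% of genes had an unadjusted p under 0.05, DESeq2 called 0, and limma called Idi1. P0-induced ME was lower than E10.5-induced ME in 7 of 8 members, though Insig1 changed sign with plain library totals and limma and Srebf2 with limma, with a median log2 fold change of -0.30 against -0.02 over all genes, and Idi1 was the 1 member without overlap, against 7.18% of genes lower without overlap. From P0 ME to E10.5-induced ME at P28, 0 of 8 members and 18.2% of genes were called by edgeR, with 1 member and 32.1% of genes at an unadjusted p under 0.05 and 0 members called by DESeq2 or limma. From P0 WT to P28 WT 7 of 8 members were below 0, with a median of -0.34 against -0.07 over all genes, Srebf2 at 0.35 being the exception, and no sign changed under the scalings tried.

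**Figure D3:**
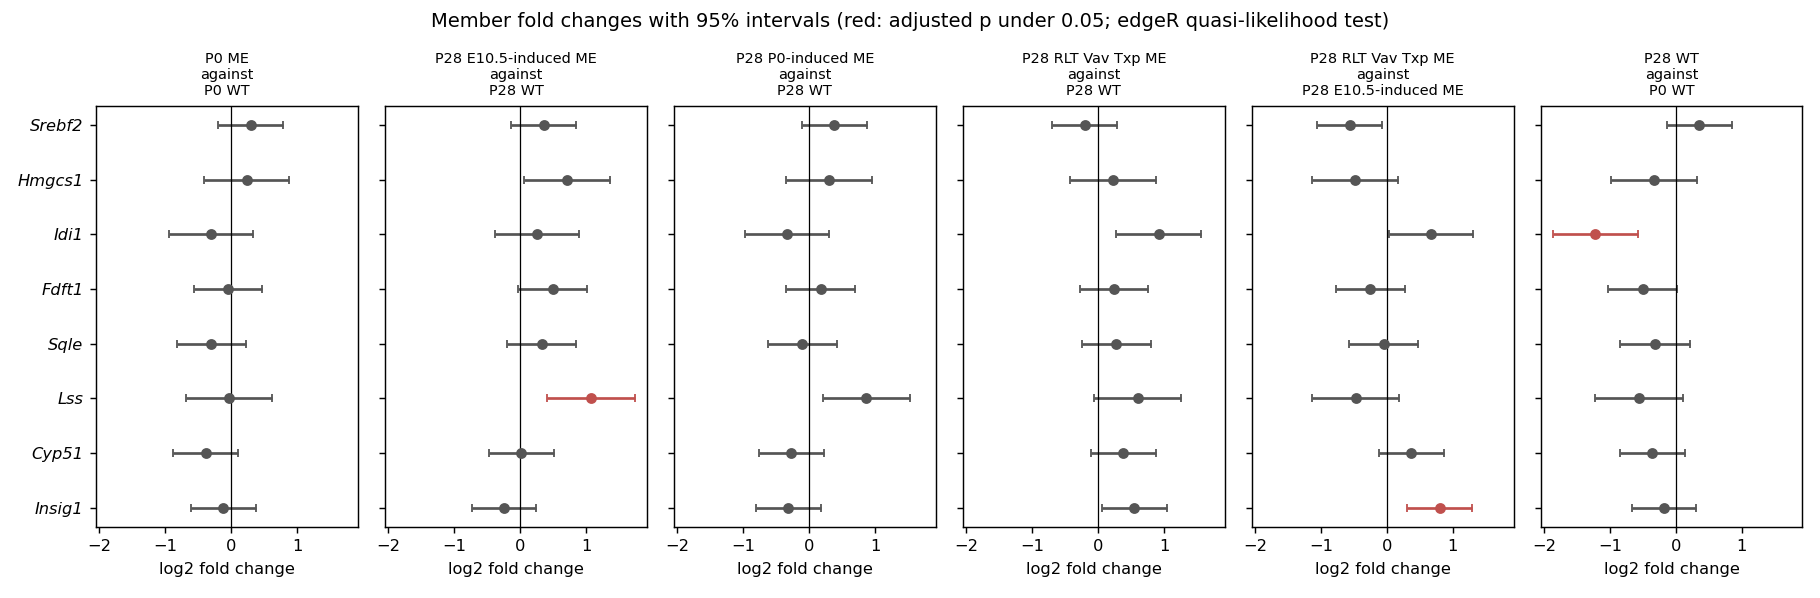
Log2 fold changes of the 8 members (rows) in 6 comparisons (panels), with 95% intervals from the edgeR quasi-likelihood fit; red marks an adjusted p under 0.05. The red points are Lss at 1.07, Insig1 at 0.80 and Idi1 at -1.22.

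The members did not move as 1 block across libraries. Over the 24 libraries, Sqle and Hmgcs1 followed the mean of the other 7 members most closely, with Pearson correlations of 0.72 and 0.70, and Srebf2 least, with 0.09. The closest pairs were Sqle with Cyp51 at 0.75, Hmgcs1 with Lss at 0.68 and Srebf2 with Lss at 0.62, while Srebf2 and Idi1 ran against each other at -0.54. With each library taken as its deviation from the group mean, Srebf2 followed the other 7 at 0.43 and Hmgcs1 and Cyp51 at 0.79 each. These correlations describe 24 libraries that share groups, scaling and cell content.

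Among the 10 genes whose levels were most like the mean standardised level of the 8 members, over 24 libraries and 9637 genes, were Exoc5 at 0.77, Kpna3 at 0.76, Gcnt1 at 0.76, Chtop at 0.72, Stard4 at 0.70, Nampt at 0.69, Snap29 at 0.68, Atxn3 at 0.67 and Vkorc1l1 at 0.67. Stard4 codes for a sterol carrier and was not used to choose the members. As deviations from group means, the 10 closest included Kpna3 at 0.86, Tprn at 0.82, Lratd2, Kpna4 and Chtop at 0.81, Zfp748, Cbfa2t3 and Exoc5 at 0.80 and Kcnh2 at 0.78. Within groups the mean member level also ran against summed erythroid markers at -0.61, neutrophil markers at -0.57 and macrophage markers at -0.52. Proliferation markers were at -0.44, lymphoid at -0.30, hepatocyte at -0.25, mast cell at -0.17 and LSK genes at 0.45. Erythroid, neutrophil and macrophage sums were low together in library 1 of P0 WT and of P0 ME, so they are not separate observations. Member deviations there were 0.77 and 1.54. Library 2 of P0 WT, high in erythroid markers, had 1.02. The part of these libraries or of any marker list was not tested.

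Among 15 other cholesterol synthesis enzymes, 1 was called in E10.5-induced ME against P28 WT, where 12.3% of all genes were. This was Lbr, which codes for a lamin receptor with sterol reductase activity, at 0.55 (SE 0.15, edgeR adjusted p = 0.0186). The median of the 15 was 0.0016, against -0.10 over all genes tested. From P0 WT to P28 WT, 3 of 15 fell, against 7.68% of all genes called: Lbr by 0.64, Acat2, which condenses acetyl-CoA, by 0.55 and the sterol reductase gene Tm7sf2 by 1.56 on the log2 scale. In RLT Vav Txp against E10.5-induced ME, Lbr and Acat2 fell by 0.71 and 0.54 and Fdps, farnesyl diphosphate synthase, rose by 1.58 from a mean of 0.98 CPM. Processed copies of Fdps in the genome can share its reads, so its counts are uncertain.

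Genes that control SREBP moved in both directions in E10.5-induced ME against P28 WT, with 3 of 5 called, against 12.3% of all genes. Of 5, Scap rose by 0.97 (SE 0.29, edgeR adjusted p = 0.0263), Srebf1, the gene for SREBP1, rose by 0.86 (SE 0.22, edgeR adjusted p = 0.0116), and Mbtps2, the protease that makes the last cleavage, fell by 0.92 (SE 0.24, edgeR adjusted p = 0.0128). The fatty acid synthesis list, which SREBP1 is known to activate, had 4 of 10 genes called higher, against 12.3% of all genes called, and a median of 0.58 against -0.10 over all genes. Fasn, fatty acid synthase, averaged 191 ± 35.4 CPM in E10.5-induced ME and 73.7 ± 24.1 CPM in P28 WT (SD, n = 4), a log2 change of 1.38 (SE 0.31, edgeR adjusted p = 0.00708). Acaca, which makes malonyl-CoA, rose by 1.36, Acly, which makes cytosolic acetyl-CoA, by 1.27 and the desaturase Scd2 by 0.53. Unlike the members, these lists were not run with the GC and length offsets, which removed the Lss call, or with libraries left out. Proliferation markers, 5 of 10 called higher in E10.5-induced ME, may differ with them, and their part in these changes was not tested. In P0-induced ME against P28 WT, edgeR called 0 of the 10 fatty acid synthesis genes, against 1.57% of all genes. An unadjusted p under 0.05 was reached by 4 of the 10, against 20.2% of all genes. DESeq2 called 2 of the 10 and limma 3. The median there was 0.30, against -0.09 over all genes. Of the 5 SREBP control genes, edgeR and DESeq2 called 0 in P0-induced ME against P28 WT and limma 3, with a median of 0.41. Between the induction times, where edgeR called 0.0477% of all genes, edgeR and DESeq2 called 0 in both lists. There limma called 3 of the 5 SREBP control genes and 6 of the 10 fatty acid synthesis genes.

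**Figure D4:**
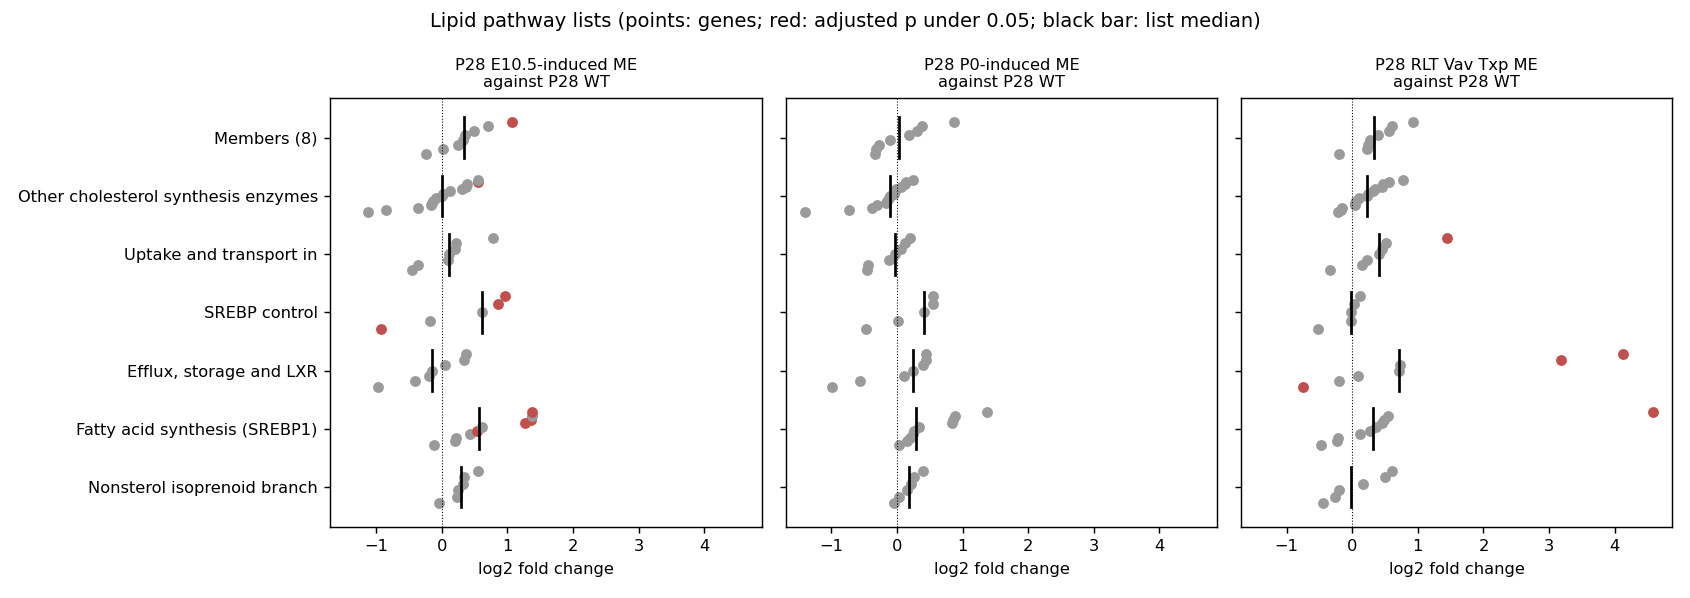
Log2 fold changes against P28 WT of the 8 members and of 6 other lipid gene lists (rows), 1 point per gene, in the 3 ME groups of P28 (panels); red marks an adjusted p under 0.05 and black bars the list medians. In E10.5-induced ME 4 of 10 fatty acid synthesis genes are red and 1 of 8 members.

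In RLT Vav Txp against P28 WT, lipid genes were called in some lists and not in others. In that comparison 4.12% of all genes were called. Called genes were 3 of 7 in the list of efflux, storage and the sterol sensor LXR (2 higher and 1 lower). In uptake and transport 1 of 7 was called and in fatty acid synthesis 1 of 10. Abca1, Abcg1 and Soat1 of the efflux, storage and LXR list were not called. The members and the other lipid lists had 0. Apoe, the apolipoprotein that macrophages secrete, averaged 2315 ± 887 CPM against 132 ± 27.96 CPM (SD, n = 4), a log2 change of 4.13 (SE 0.39, edgeR adjusted p = 8.86e-07). Nr1h3, the gene for the sterol sensor LXR alpha, rose by 3.19, the lysosomal lipase Lipa by 1.44 and the desaturase Scd1 by 4.58, and Mylip, which codes for a ubiquitin ligase, fell by 0.74. In the same libraries 9 of 10 macrophage markers were called higher with a median log2 fold change of 4.94. Summed erythroid (1127 to 2373 against 468 to 632 CPM), neutrophil (2068 to 6786 against 705 to 934 CPM) and mast cell markers (74.5 to 189 against 7.90 to 31.6 CPM) were also above P28 WT. The part of these cells in the lipid gene changes was not tested. The branch from the pathway to isoprenoids other than sterols had 2 of 6 genes called lower in RLT Vav Txp against E10.5-induced ME, where 17.9% of all genes were called, Dhdds by 0.60 and Fntb by 0.76 on the log2 scale. Of 7 uptake and transport genes, Lipa was the 1 called against P28 WT. Against E10.5-induced ME, with the same 17.9% of genes called, 5 of 10 fatty acid synthesis genes fell in RLT Vav Txp, among them Scd2 by 1.00 and Fasn by 1.26, while Scd1 rose by 3.21.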

How the data were processed

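Per the labels, RNeasy Plus columns gave the RNA and Clontech SMARTer chemistry the libraries. The authors deposited raw counts per Ensembl gene in 1 table. Per the submitters' processing notes, STAR 2.7.9a, Subread, featureCounts 2.0.3 and GRCm38 were used; strand setting, treatment of multi-mapping reads and annotation release are not given in the sources used here. Of 55774 entries, 287 repeats of 168 IDs were dropped. Columns were matched to libraries by the library number in the labels. Library totals are given in the report. The 95% intervals come from the edgeR fit and include the spread between libraries.

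Genes were kept by filterByExpr (minimum count 10), then tested with edgeR 4.0.16 (TMM scaling, robust quasi-likelihood), each group having its own mean and all 24 libraries sharing 1 fit with 18 residual degrees of freedom. Calls are Benjamini-Hochberg adjusted p under 0.05 over 23059 genes. CPM values are TMM-normalised, RPKM divides by the union of exons in GENCODE M21, and log2 CPM used a prior count of 2. Alternatives used DESeq2 1.42.0 and limma 3.58.1 in R 4.3.3, other scalings and filters, a fit of only the groups compared, GC and length offsets and the leaving out of each library; figures used matplotlib 3.10.9 in Python 3.11.15.

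The members, gene lists and tests were chosen with earlier results of these data known. Genes named are the 8 members, at most 4 called genes per other list and comparison with the smallest adjusted p, and the 10 genes most like the mean member level by Pearson correlation among genes averaging 3 or more in log2 CPM, once over levels and once over deviations from group means. A few genes of these lists are not reported here by name.

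The fit was tested on simulated counts for E10.5-induced ME against P28 WT, with 200 changed genes and a trended dispersion. With changed genes drawn from all tested genes, 17.9% of those changed 2-fold, 44.8% of those changed 4-fold and 63.6% of those changed 8-fold were called, with 22493 genes run. This missed a preset mark for 8-fold genes, as had an earlier draw with gene-wise dispersions. A draw limited to genes averaging 3 or more in log2 CPM, made after that miss, gave 58.2%, 98.5% and 100% with 22477 genes run. False calls were 4 of 22303 and 7 of 22277 unchanged genes, and 0 genes were called in a comparison without change. The simulation gave every group the same spread, unlike the groups of these data, so its rates cannot be carried over to them.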

Additional observations from a re-analysis of the deposited data

How the results depend on the processing

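Most values kept their direction. Of the 72 log2 fold changes, 16 changed sign when a setting was changed or a library left out, and the largest of these was 0.38 in size as reported. Among values under alternatives other than leaving out libraries, 635 kept direction and call, 36 changed sign, 13 gained a call and 4 lost one. Plain library totals moved the median of all genes by up to -0.20 on the log2 scale (the ME difference at P28 minus that at P0) and by -0.13 in E10.5-induced ME against WT, while RLE scaling moved it by at most 0.09 in size. The cause of these changes was not tested. Depth did not leave any member at the floor of 3 counts.

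The count of members called in E10.5-induced ME against P28 WT was 1 as reported, 0 with plain library totals, 0 with no filter on low counts, 0 with offsets for GC content and length (chosen after seeing the data) and 2 when only the groups compared were fitted, and ran from 0 to 1 when each library was left out. In RLT Vav Txp against E10.5-induced ME it was 1 as reported and 4 both with limma quality weights and with only the groups compared, and ran from 0 to 1 over left-out libraries. Insig1, Idi1 and Srebf2 passed under both of those settings, and Lss and Cyp51 under 1 each. From P0 WT to P28 WT the count was 1 as reported, 0 with only the groups compared, and ran from 0 to 1 over left-out libraries. It rose from 0 to 1 under limma and with only the groups compared in P0-induced ME against WT, RLT Vav Txp against WT and P0- against E10.5-induced ME.

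Signs changed as follows. With RLE scaling, Cyp51 in E10.5-induced ME against WT was -0.0617, Sqle in RLT Vav Txp against E10.5-induced ME was 0.0048, Fdft1 and Cyp51 from P0 ME to P28 were -0.0196 and -0.014, and Srebf2 in the difference between ages was -0.0254. DESeq2, in the same order, gave Cyp51 -0.0618, Sqle 0.0048, Fdft1 -0.0199, Cyp51 -0.014 and Srebf2 -0.0254. With plain totals, Fdft1 and Lss at P0 were 0.0406 and 0.0186, Cyp51 in E10.5-induced ME was -0.11, Insig1 between induction times was 0.0389, Fdft1 and Cyp51 from P0 ME to P28 were -0.0085 and -0.0103, and Srebf2 in the difference between ages was -0.12. With limma, Hmgcs1 at P0 was -0.13, Cyp51 in E10.5-induced ME was -0.0025, Srebf2 and Insig1 between induction times were -0.0139 and 0.0327, Sqle in RLT Vav Txp against E10.5-induced ME was 0.0049, and Insig1 in the difference between ages was 0.0132. Cyp51 in E10.5-induced ME was -0.021 with no filter, -0.0582 with at least 10 counts in 12 libraries and -0.062 with only the groups compared, and Sqle in RLT Vav Txp against E10.5-induced ME was 0.0209 and 0.0148 under the last 2. With offsets for GC content and length, Srebf2 and Cyp51 in E10.5-induced ME were -0.0647 and -0.21, Srebf2 and Fdft1 in P0-induced ME -0.0149 and -0.0036, Sqle in RLT Vav Txp against E10.5-induced ME 0.14, Fdft1 and Cyp51 from P0 ME to P28 -0.19 and -0.0988, and Srebf2 in the difference between ages -0.28.

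Leaving out each library in turn, the values that changed sign ran as follows. At P0, Hmgcs1 ran from -0.14 to 0.44, Fdft1 from -0.25 to 0.0687 and Lss from -0.28 to 0.12. In the difference between ages, Srebf2 ran from -0.0979 to 0.32 and Insig1 from -0.30 to 0.10. From P0 ME to P28, Hmgcs1 ran from -0.0423 to 0.52, Fdft1 from -0.11 to 0.24 and Cyp51 from -0.0985 to 0.36. Cyp51 in E10.5-induced ME ran from -0.0877 to 0.0963, and Fdft1 and Sqle in P0-induced ME from -0.0359 to 0.32 and from -0.30 to 0.13. Between induction times Srebf2 ran from -0.0789 to 0.16 and Insig1 from -0.18 to 0.11, and Sqle in RLT Vav Txp against E10.5-induced ME ran from -0.16 to 0.10.

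The replicate numbers of the labels did not meet the criterion for pairing the libraries: same-number correlations ran from -0.39 to 0.66, and in 0 of 10 pairs of groups were all above 0.1. The closest pair of groups was P0 WT with P0 ME, at a mean of 0.39 and with 3 of 4 libraries correlating best with their own number. With the replicate number as a block in the 20 numbered libraries, Lss in E10.5-induced ME was 1.11 (edgeR adjusted p = 0.0161) and Idi1 from P0 WT to P28 WT was -1.18 (edgeR adjusted p = 0.0369), and the block changed 0 of the counts of members called.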
